A study of Homo sapiens with 12 samples.

Results

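ISG15 and the genes that attach it to proteins or remove it were examined in 2 human prostate cancer cell lines after knockdown of FOXA1, a forkhead transcription factor. The 7 genes were ISG15, UBA7, UBE2L6, HERC5, HERC6, USP18 and TRIM25, found by name among the 60106 genes of each library's table. They were chosen with their values for siRNA against FOXA1 compared with control siRNA already known in both lines, so those values are given as a description, with no p-value. PC3, a line from a bone metastasis, was transfected with 20 nM non-targeting siRNA (NSI) or 20 nM siRNA against FOXA1 (siFOXA1) and grew in RPMI-1640. VCaP, a line from a vertebral metastasis that carries a rearranged ERG gene, received 40 nM of either siRNA and grew in DMEM. All cells received RNAiMax lipid and were lysed after 72 hours, and each of the 4 groups had 3 libraries. PC3 libraries were made from polyadenylated RNA with a stranded mRNA kit, and VCaP libraries from total RNA with a total RNA kit, so the line cannot be told apart from the siRNA dose, the medium and the kit. The labels do not say whether replicates came from separate cultures, so errors and p-values measure only the spread between these libraries, which may be technical.

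ISG15 is a ubiquitin-like protein made after interferon exposure, and its attachment to other proteins is called ISGylation. UBA7 is the E1 enzyme that activates ISG15, UBE2L6 is the E2 enzyme that carries it, and HERC5 is the main ligase that transfers it to substrates in human cells. HERC6 is the closest relative of HERC5 and is the main ISG15 ligase in mice. USP18 removes ISG15 from substrates and also dampens signalling at the type I interferon receptor, where ISG15 itself stabilises USP18 in human cells. TRIM25 is a ubiquitin ligase that acts on the RNA sensor RIG-I and has also been described as an ISG15 ligase. Genes of this group are commonly switched on through the interferon-stimulated response element, a promoter sequence bound by STAT and IRF factors.

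Promoter windows are shown because that element is the best known regulatory sequence of this group of genes. Windows ran from 250 bases before to 50 bases after the annotated start, 300 bases in all, and came from RefSeq on GRCh38.p14. There 5 of the 7 members had a window, and UBE2L6 had 2. Both strands were searched for the core of the response element (GAAA and GAAA with any 2 bases between them), TTCCNGGAA (the gamma-activated site) and TGTTTAC (a forkhead motif), which occurred in 3.57%, 1.15% and 3.42% of 35116 windows. ISG15 had 2 overlapping matches to the core of the response element, at -113 to -104 and -107 to -98 from its start. HERC5 had 3 matches on the opposite strand, at -125 to -116, -119 to -110 and -74 to -65, of which the first 2 overlap. HERC6, UBE2L6 and TRIM25 had no match to any of the 3 motifs in these windows, and ISG15 and HERC5 had none to the other 2. The stretches below run 5′ to 3′ on the plus strand, which all 3 genes share, with the matched letters in capitals. They lie at chr1:1013374-1013409 for ISG15, chr4:88456984-88457064 for HERC5 and chr4:88378792-88378851 for HERC6, the last being the 60 bases before its start.
ISG15: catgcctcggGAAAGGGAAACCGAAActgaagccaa
HERC5: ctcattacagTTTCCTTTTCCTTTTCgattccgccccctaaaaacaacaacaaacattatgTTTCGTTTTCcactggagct
HERC6: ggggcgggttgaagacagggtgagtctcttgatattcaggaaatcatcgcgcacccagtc
HERC5 and HERC6 are neighbours on chromosome 4. The HERC5 window carried the core letters and the HERC6 window did not. Whether these letters have a part in the changes with siFOXA1 was not tested. A match is a description of letters and not a bound site.

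FOXA1 RNA itself checked the labels. Levels are given as CPM, counts divided by the library total after scaling with TMM factors within each line. In PC3, FOXA1 stood at 303.4, 244.1 and 265.8 CPM in NSI and 163, 182.2 and 161.9 in siFOXA1, a log2 fold change of -0.68 ± 0.10 (SE) with an adjusted p of 0.0022. In VCaP it stood at 457.6, 467.8 and 543.6 CPM in NSI and 85.18, 73.55 and 83.04 in siFOXA1, a log2 fold change of -2.60 ± 0.095 with an adjusted p of 1.84e-07. The siFOXA1 libraries thus kept 62.3% of the control level in PC3 and 16.5% in VCaP, and the difference between the lines passed its own test (log2 -1.94 ± 0.15, adjusted p = 2.98e-07). Library totals were 123140099 to 188226483 counts in PC3 and 48187047 to 59839211 in VCaP. Epithelial KRT8 and KRT18 were above 77 CPM in every library, and TMPRSS2 was at 92.7 to 122.9 CPM in VCaP and at most 0.417 in PC3. They belong to longer lists of epithelial and luminal markers whose other genes are not reported here. Not all of those others showed these patterns, so the markers check the identity of the lines only in part. Among 7 markers of blood, endothelial and fibroblast cells, PTPRC, CD3E and DCN were at most 0.179 CPM in all libraries. The sum of the 7 markers was 20.2 to 23.1 CPM in PC3 NSI and 30.3 to 33.8 in PC3 siFOXA1, nearly all of it COL1A1, and 5.88 to 9.11 and 5.22 to 6.72 in VCaP. CD14 was at 0.626 to 0.790 CPM in VCaP NSI and 2.25 to 2.98 in VCaP siFOXA1, while VWF was at 3.93 to 4.54 and 1.68 to 2.02. The part of these markers in the results was not tested. In bulk RNA, fewer cells with a transcript and less of it per cell cannot be told apart.

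In PC3, the modifier, its E1, its E2, both HERC genes and the protease were between 5.85 and 10.4 times higher with siFOXA1, and only TRIM25 among the 7 genes did not differ beyond its spread. All 6 of these genes were called higher by edgeR (adjusted p under 0.05), where 13.9% of 26478 genes tested were called higher and 27.7% were called in either direction. The same 6 genes had every siFOXA1 library above every NSI library, which held for 22.4% of genes tested, against 22.7% with every siFOXA1 library below and 45.1% with no overlap either way. Each of the 6 changed by a log2 of more than 2, a size of rise reached by 1.92% of genes. The median log2 fold change of the 7 members was 2.79, against -0.01 for all genes tested. Because the genes were chosen on this comparison, nothing is read from these shares.

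ISG15 itself (ENSG00000187608.8_4, chromosome 1, 936518 to 949921, plus strand, GRCh37 as for all loci from here on) stood at 84.14, 96.51 and 113.7 CPM in PC3 NSI. In siFOXA1 it stood at 669.9, 894.9 and 477.5 CPM, so the lowest siFOXA1 library was still far above the highest control. The groups averaged 98.1 ± 14.9 and 680.8 ± 209 CPM (SD, n = 3), a log2 fold change of 2.79 ± 0.22 or 6.94-fold. ISG15 was the most uneven member within a group: in PC3 siFOXA1 its coefficient of variation was 30.7%, and replicate 2 was 1.87 times replicate 3. Library by library, the ratio of siFOXA1 to the NSI library of the same number was 7.96, 9.27 and 4.20. Exons of the antisense gene RP11-54O7.10 cover 3.82% of the exonic bases of ISG15, and PC3 counts ignored strand, so over that stretch reads of the 2 genes cannot be told apart.

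The enzymes that activate and carry ISG15 were both higher with siFOXA1 in PC3. UBA7 (ENSG00000182179.12_3, chromosome 3, 49842640 to 49851379, minus strand) stood at 5.809, 8.046 and 7.38 CPM in NSI and at 60.23, 69.92 and 64.09 CPM in siFOXA1. Its log2 fold change was 3.19 ± 0.14, or 9.15-fold, with 8.69 to 10.4-fold between libraries of the same number. UBE2L6 (ENSG00000156587.15_3, chromosome 11, 57319129 to 57335757, minus strand) stood at 43.63, 50.52 and 53.4 CPM in NSI and at 267.4, 320.1 and 275.5 CPM in siFOXA1. The 2 groups of UBE2L6 were separated by a wide gap, with a log2 fold change of 2.55 ± 0.12 or 5.85-fold, the smallest of the 6.

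Both HERC genes, which lie side by side on chromosome 4, were also far above their controls. HERC5 (ENSG00000138646.8_3, 89378268 to 89427314, plus strand) stood at 3.457, 3.484 and 3.909 CPM in PC3 NSI and at 22.84, 20.82 and 21.76 CPM in siFOXA1, a log2 fold change of 2.59 ± 0.10. HERC6 (ENSG00000138642.14_3, 89299891 to 89364263, plus strand) stood at 13.5, 10.32 and 16.62 CPM in NSI and at 147.8, 127.8 and 144.4 CPM in siFOXA1. Its log2 fold change of 3.38 ± 0.17, or 10.4-fold, was the largest of the 7, although its NSI libraries varied by 23.3%. Without NSI replicate 2, its lowest control, HERC6 had 3.26 and UBA7 3.34. The ratio per number was 11.0, 12.4 and 8.69 for HERC6 and 6.61, 5.98 and 5.57 for HERC5.

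The deconjugating protease USP18 (ENSG00000184979.9_2, chromosome 22, 18632666 to 18660164, plus strand) stood at 6.575, 6.056 and 6.985 CPM in PC3 NSI. In siFOXA1 it stood at 50.84, 55.01 and 56.97 CPM, so a protease that takes ISG15 off was higher alongside the enzymes that put it on. The log2 fold change was 3.05 ± 0.099, or 8.30-fold. USP18 has a near-identical copy, USP41, elsewhere on chromosome 22 (20717911 to 20745048, minus strand). Of the 31-base words in the exons of USP18, 59.7% occurred elsewhere in the GRCh37 genome, and 25.4% occurred in exons of USP41. Fragments mapping to several places were divided among them by the authors' counting, so the levels of USP18 and USP41 are uncertain. USP41 was counted at a low 0.427 ± 0.109 CPM in PC3 NSI and 3.07 ± 0.443 in siFOXA1 and moved the same way (log2 2.84 ± 0.22, adjusted p = 5.53e-05).

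TRIM25 (ENSG00000121060.16_3, chromosome 17, 54965270 to 54991399, minus strand) behaved differently from the other members in PC3. It stood at 246.4, 180.5 and 233.4 CPM in NSI and at 232.6, 212.3 and 220.4 CPM in siFOXA1, and the groups overlapped. The log2 fold change was 0.01 ± 0.12, and its sign turned without NSI replicate 2, the lowest library (-0.069). Exons of an annotated antisense gene cover 9.38% of the exonic bases of TRIM25, and PC3 reads over that stretch cannot be assigned to a strand.

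**Figure D1:**
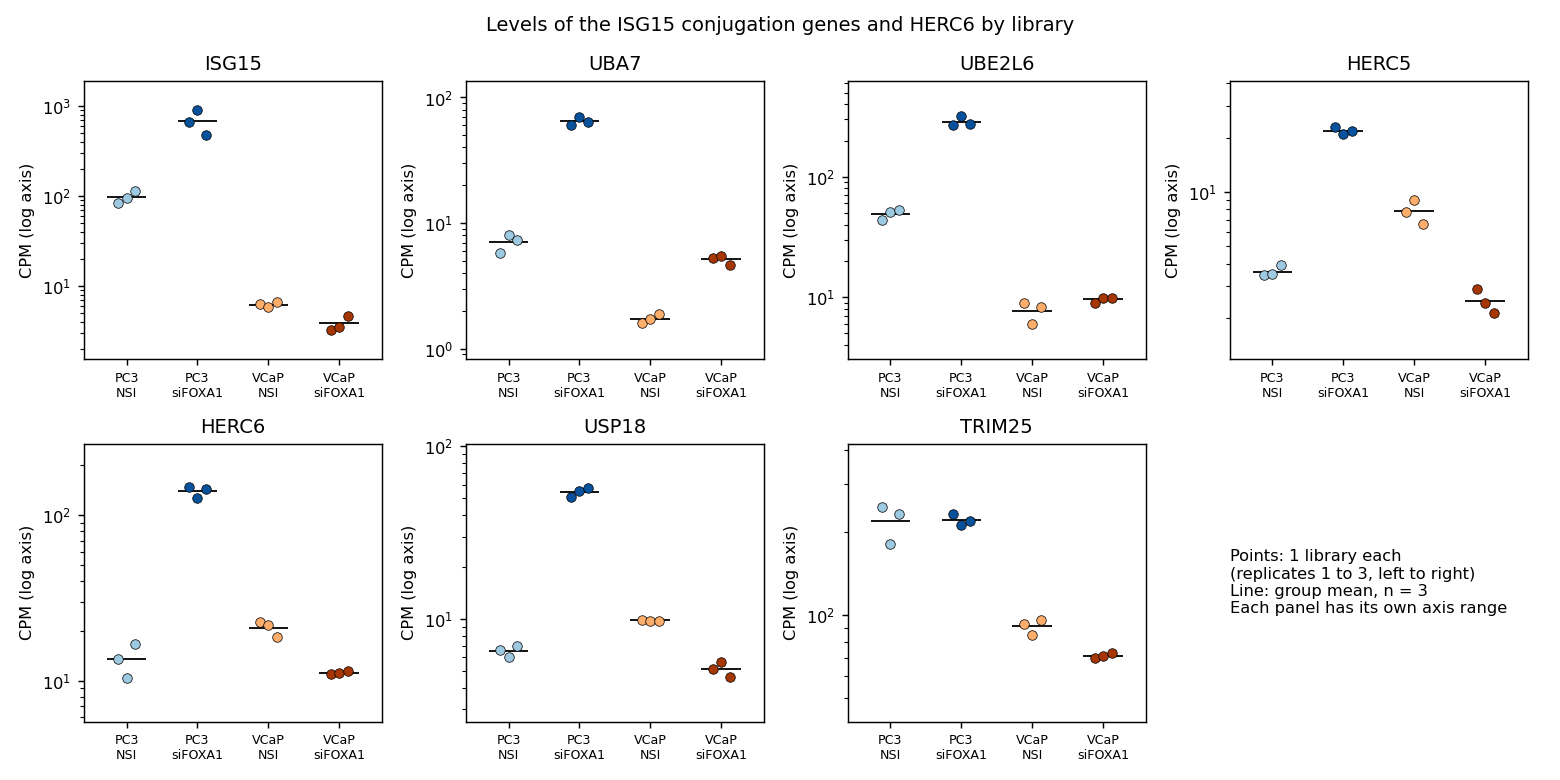
Level of each of the 7 genes in the 12 libraries, in CPM on a log axis that has its own range in each panel. Points are single libraries in the order of replicates 1 to 3 and lines are means of 3. In PC3 the siFOXA1 points lie above the NSI points for every gene except TRIM25. In VCaP they lie below for ISG15, HERC5, HERC6, USP18 and TRIM25 and above for UBA7, while those of UBE2L6 begin just above the highest control.

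In VCaP the same genes split. ISG15, HERC5, HERC6, USP18 and TRIM25 were lower with siFOXA1, at 31.9% to 78.0% of control, UBA7 was 2.96-fold higher, and UBE2L6 was not called. Thus 5 members were called lower, where 23.3% of 22939 genes tested were, and 1 was called higher, where 22.5% were, and 45.8% in either direction. The 5 lower members had every siFOXA1 library below every NSI library, as did 28% of genes tested, and UBA7 and UBE2L6 had every siFOXA1 library above, as did 27.9%, with 55.9% free of overlap either way. No member rose by a log2 of 2 or more, as 2.62% of genes did. The median log2 fold change of the members was -0.69, against 0.02 for all genes tested. As in PC3, the members were chosen on this comparison and nothing is read from the shares.

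ISG15 was a low transcript in VCaP, at 6.316, 5.818 and 6.603 CPM in NSI. With siFOXA1 it stood at 3.295, 3.558 and 4.721 CPM, below all controls, from 166 to 248 counts a library. The log2 fold change was -0.69 ± 0.14, which left 61.8% of the control level.

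UBA7 was the exception in VCaP. Its control libraries held 1.598, 1.714 and 1.877 CPM, which rested on 82.5 to 107.9 counts, and its siFOXA1 libraries 5.299, 5.467 and 4.626 CPM, from 243 to 274.5 counts. The groups were well apart, with a log2 fold change of 1.57 ± 0.12 or 2.96-fold. The ratio by number was 3.32, 3.19 and 2.47, although it is not clear that numbers pair libraries in VCaP. UBA7 was thus the only member called higher in both lines. UBE2L6 stood at 8.858, 5.958 and 8.201 CPM in NSI and at 8.891, 9.86 and 9.862 CPM in siFOXA1. Its lowest siFOXA1 library only just exceeded its highest control, replicate 2 of NSI stood apart as low, and the log2 fold change was 0.31 ± 0.14. Without NSI replicate 1 UBE2L6 became a call at 0.41, so 2 members were then called higher.

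The HERC genes and the protease were all lower with siFOXA1 in VCaP. HERC5 stood at 7.741, 8.986 and 6.655 CPM in NSI and at 2.898, 2.425 and 2.132 CPM in siFOXA1, and at -1.65 ± 0.15 its log2 fold change was the lowest of the members. HERC6 stood at 22.51, 21.82 and 18.45 CPM in NSI and at 10.96, 11.17 and 11.42 CPM in siFOXA1, with a log2 fold change of -0.90 ± 0.087 or 53.5% of control. The siFOXA1 libraries of HERC6 were nearly equal, with a coefficient of variation of 2.09%. USP18 stood at 9.917, 9.763 and 9.713 CPM in NSI and at 5.12, 5.626 and 4.607 CPM in siFOXA1, a log2 fold change of -0.94 ± 0.097 or 52.2% of control. USP18 and HERC6, on different chromosomes, were left at nearly the same share of control. USP41, at 25.5 to 55.46 counts a library in VCaP, was also lower (log2 -0.58 ± 0.19, adjusted p = 0.0293), a call that DESeq2 did not make (-0.59, adjusted p = 0.126). TRIM25 stood at 92.78, 84.36 and 95.6 CPM in NSI and at 69.64, 70.83 and 72.4 CPM in siFOXA1, a log2 fold change of -0.36 ± 0.064. That was the smallest of the 5 decreases, yet its 2 groups stayed apart.

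The difference between the lines, VCaP effect minus PC3 effect in 1 fit over the 12 libraries, was negative for all 7 members. In log2 units it was -4.29 ± 0.20 for HERC6, -4.25 ± 0.18 for HERC5, -4.00 ± 0.13 for USP18 and -3.50 ± 0.28 for ISG15. Smaller differences were found for the enzymes UBE2L6 (-2.25 ± 0.18) and UBA7 (-1.64 ± 0.18). TRIM25, at -0.38 ± 0.15, was the only member not called, and became a call at -0.39 with the replicate block. The 6 calls compare with 11.1% of 30450 genes tested called lower, a share from which nothing is read here because HERC6 and its group were picked for this difference. The knockdown was deeper in VCaP than in PC3 (above), and its part in the difference was not tested.

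**Figure D2:**
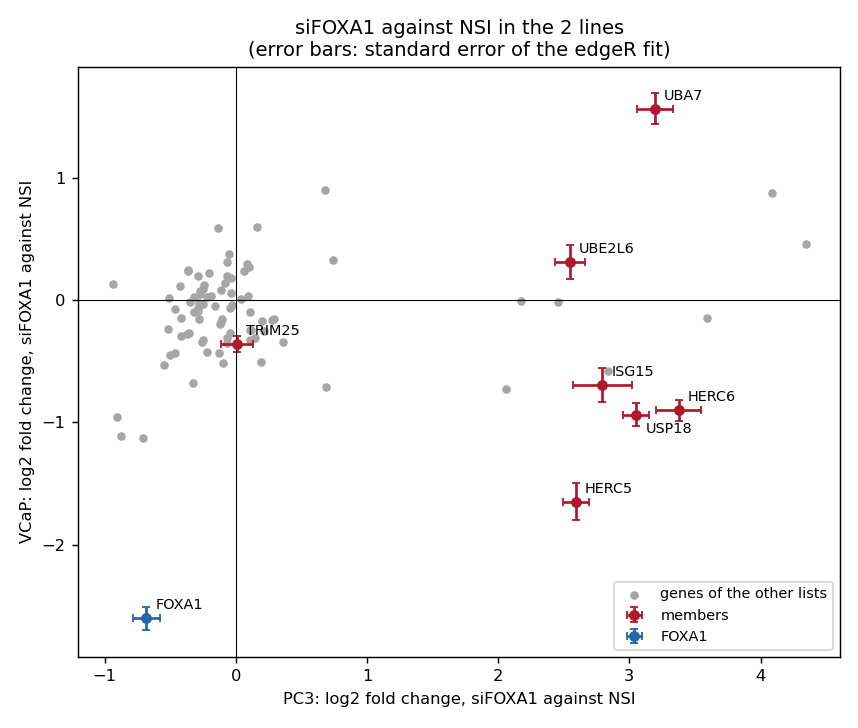
Log2 fold change of siFOXA1 against NSI in PC3 (horizontal) and VCaP (vertical) with standard errors of the edgeR fit as bars, for the 7 members (red), FOXA1 (blue) and the genes of the other lists (grey). ISG15, HERC5, HERC6 and USP18 lie at the lower right, higher in PC3 and lower in VCaP. UBA7 lies at the upper right, UBE2L6 just above the horizontal line, and TRIM25 near the centre.

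Control cells of the lines were compared as well. The choice of genes did not use this contrast itself, but the comparisons behind the choice used the same NSI libraries. The values and p-values of the members here are therefore not independent of that choice. VCaP NSI had much less ISG15, UBE2L6 and UBA7 than PC3 NSI, less TRIM25, and more HERC5, HERC6 and USP18. By edgeR's quasi-likelihood test the log2 difference was -3.98 ± 0.14 for ISG15 (adjusted p = 2.00e-10), -2.68 ± 0.15 for UBE2L6 (9.80e-09), -2.03 ± 0.16 for UBA7 (2.82e-07) and -1.28 ± 0.13 for TRIM25 (2.14e-06). It was 1.10 ± 0.14 for HERC5 (adjusted p = 1.91e-05), 0.63 ± 0.16 for HERC6 (0.00362) and 0.58 ± 0.11 for USP18 (0.000448). The modifier with its E1 and E2 thus went one way and the HERC genes with the protease the other. Calls were the rule here: 87% of 28170 genes passed, 42.4% higher and 44.6% lower in VCaP, so being called sets no member apart. The line cannot be told apart from the kit, the medium, the dose and the strand setting of the counting in this contrast. Exons of TRIM25 and ISG15 overlap those of antisense genes.

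When the 4 groups were ordered by level for each gene, on a scale common to the 12 libraries, PC3 siFOXA1 came first for each of the 7. ISG15 followed with PC3 NSI, VCaP NSI and VCaP siFOXA1, without overlap between neighbours. UBA7 and UBE2L6 followed with PC3 NSI, VCaP siFOXA1 and VCaP NSI, also without overlap. HERC5, HERC6 and USP18 shared another order, in which VCaP NSI came next, then PC3 NSI and VCaP siFOXA1. Of these, HERC6 had overlap between the last 2 groups, and HERC5 and USP18 had none. TRIM25 had the order of ISG15 by its means, but its PC3 groups overlapped. These orders in part restate the comparisons the genes were chosen on, no share of all genes is given for them, and nothing is read from them. Across the lines, the order cannot be told apart from the kit, the medium, the dose and the strand setting.

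To compare genes with each other, levels were divided by exon length and are given as RPKM (CPM per kilobase of merged exons). In PC3 NSI the order was ISG15 at 104 ± 15.8 RPKM, TRIM25 at 38.4, UBE2L6 at 27.4, HERC6 at 3.45, USP18 at 3.07, UBA7 at 2.15 and HERC5 at 1.01, with only HERC6 and USP18 overlapping. ISG15 transcripts therefore outnumbered those of the E1 by 48.9 ± 6.19 to 1 and those of HERC5 by 103 ± 9.33 to 1 per length. With siFOXA1 in PC3, ISG15 stood at 723 ± 222 RPKM and made up 71.7% of the summed RPKM of the 7 genes, up from 58.0%. UBE2L6 moved to second at 160 RPKM, past TRIM25 at 38.7, which overlapped with HERC6 at 35.9, ahead of USP18 at 25.5, UBA7 at 19.6 and HERC5 at 6.07. TRIM25 held 21.4% of the summed RPKM in PC3 NSI and 3.83% with siFOXA1.

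VCaP showed another order. TRIM25 led at 15.9 RPKM in NSI, followed by ISG15 at 6.63, HERC6 at 5.36, USP18 at 4.60, UBE2L6 at 4.27, HERC5 at 2.17 and UBA7 at 0.524, with overlap between USP18 and UBE2L6. ISG15 held 16.8% of the summed RPKM in VCaP NSI and TRIM25 40.2%. With siFOXA1 in VCaP the order was TRIM25 at 12.4, UBE2L6 at 5.31, ISG15 at 4.10, HERC6 at 2.87, USP18 at 2.40, UBA7 at 1.56 and HERC5 at 0.691 RPKM, with overlap between UBE2L6 and ISG15. The last place passed from UBA7 to HERC5. Summed over the 7 genes, mean RPKM came to 179.6 in PC3 NSI, 1009 in PC3 siFOXA1, 39.4 in VCaP NSI and 29.3 in VCaP siFOXA1. In raw terms the 7 genes took 0.0349% to 0.0422% of counts in PC3 NSI libraries, 0.130% to 0.174% in PC3 siFOXA1, 0.0141% to 0.0151% in VCaP NSI and 0.0105% to 0.0110% in VCaP siFOXA1.

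**Figure D3:**
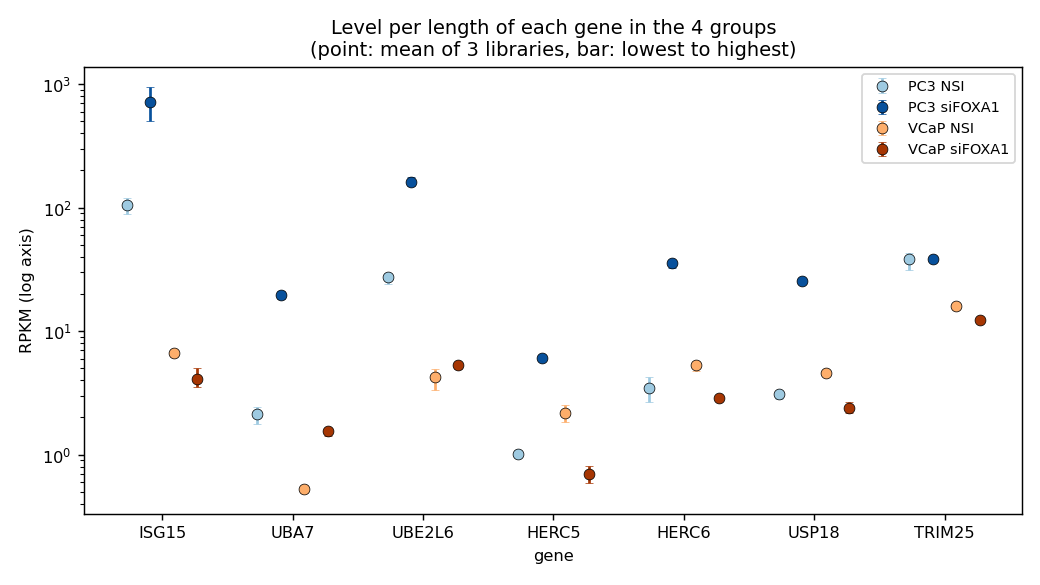
RPKM of each gene on a log axis in the 4 groups, with points for means of 3 libraries and bars from the lowest to the highest library. ISG15 is the highest of the 7 genes in both PC3 groups and TRIM25 in both VCaP groups. HERC5 is the lowest in every group except VCaP NSI, where UBA7 is.

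Ratios of members within a library remove the scaling of the library and are given here as a description. They in part restate the comparisons the genes were chosen on. ISG15 per USP18, modifier per protease, was 33.9 ± 4.34 in PC3 NSI and 28.5 ± 8.98 in PC3 siFOXA1, and 1.44 ± 0.0948 and 1.73 ± 0.505 in VCaP. These ranges overlapped between NSI and siFOXA1 in both lines, while the lines lay far apart. ISG15 per UBA7 fell outside its control range in VCaP, from 12.7 ± 1.02 to 2.68 ± 0.779, and overlapped in PC3 (48.9 ± 6.19 and 36.6 ± 9.58). ISG15 per UBE2L6 also fell without overlap in VCaP, from 1.59 ± 0.255 to 0.769 ± 0.125. ISG15 per HERC5 went the other way there, from 3.12 ± 0.658 to 6.13 ± 2.11, also without overlap. Both overlapped in PC3. UBE2L6 per UBA7, E2 per E1, was lower with siFOXA1 in both lines without overlap, at 12.9 ± 1.19 and 8.15 ± 0.256 in PC3 and 8.20 ± 1.90 and 3.44 ± 0.430 in VCaP. HERC6 per HERC5 was higher with siFOXA1 in both lines without overlap, at 3.41 ± 0.614 and 5.91 ± 0.235 in PC3 and 2.49 ± 0.228 and 4.22 ± 0.726 in VCaP. The 2 HERC genes therefore shared the direction of change in each line but not its size.

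Likeness between genes was measured as the root-mean-square difference of log2 CPM over the 12 libraries, after each gene was centred on its own mean, among 14660 genes. The libraries shared by all genes fall into 4 groups, so a small value says only that group levels ran in parallel. The members were chosen on differences between these groups, so nothing is read from how near they lie to each other. HERC6 and USP18 were each other's nearest gene at 0.20, closer than every non-member. The next for HERC6 were OAS3 (0.25), an oligoadenylate synthetase of the antiviral response, and IFIH1 (0.35), the RNA sensor MDA5. USP18 was followed by APOL2 (0.32) and AC116366.4 (0.35). HERC5 was nearest to USP18 (0.38), ahead of all non-members, of which BTN3A3 (0.52) and the peptidase gene ERAP2 (0.53) came first. HERC5, HERC6 and USP18 were the members whose nearest gene was another member. UBA7 ran closest to OAS1 (0.30), another oligoadenylate synthetase, with log2 fold changes of 3.13 in PC3 and 1.55 in VCaP, and to the complement gene C4B (0.41), whose counts may be shared with a near-identical copy. UBE2L6 ran closest to C19orf66 (0.33) and LGALS3BP (0.33), and 60 non-members were nearer to it than the nearest member, UBA7 (0.71). ISG15 had the lincRNA XXbac-BPG246D15.8 (0.42) and PARP10 (0.43) nearest. The lincRNA was tested in PC3 but was not among the genes tested in VCaP, so its likeness there rests on low counts. The nearest member to ISG15 was UBE2L6 at 1.04, and 180 non-members were nearer. TRIM25 ran with ESYT2 (0.075) and SLC31A1 (0.081), a copper transporter. Its nearest member was HERC5 at 1.05, and 8156 non-members were nearer.

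HERC3, another HERC gene on chromosome 4 (89513574 to 89629693, plus strand), lies 86260 bases past the end of HERC5. It is not classed with the ISG15 ligases. Its levels were 5.05 ± 1.03 CPM in PC3 NSI and 8.15 ± 0.656 in PC3 siFOXA1, and 42.8 ± 1.65 and 26.2 ± 1.02 in VCaP. HERC3 rose in PC3 (log2 0.69 ± 0.16, adjusted p = 0.0132) and fell in VCaP (-0.71 ± 0.059, adjusted p = 1.34e-05), the directions of HERC5 and HERC6 at a smaller size in PC3. Genes that start between HERC5 and HERC3 were looked up after these values were seen. PYURF and PIGY, protein-coding genes on the other strand, did not go the way of the HERC genes. PYURF had log2 fold changes of -0.21 in PC3 (adjusted p = 0.247) and 0.21 in VCaP (0.0120), and PIGY of -0.19 (0.233) and 0.19 (0.114). A pair of processed pseudogenes there, each tested in 1 line, did go that way: RP11-466G12.3, 2428 bases past HERC5, had -1.92 in VCaP (adjusted p = 0.00503) and RP11-466G12.2 had 1.97 in PC3 (0.0176). RP11-2I7.1, whose exons share 5.04% of the exonic bases of HERC3, had 1.09 in PC3 (adjusted p = 0.0123) and -0.65 in VCaP (0.00193), and the counts of the 2 genes could be split between them.

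Other genes tied to ISG15 gave a mixed picture. This list and those that follow were chosen with earlier results of these data known, and genes were named from them mainly as the largest calls. Their p-values are therefore not independent of that choice. Of 14 such genes (proteases with reported activity on ISG15, other E2 and ligase genes, the receptor chain IFNAR2 and its adaptor STAT2, and receptors of free ISG15), 13 were tested. In PC3, 3 rose, 2 fell and 8 were not called, with a median log2 fold change of -0.08. Counts of this and the following lists are to be read against the shares of all genes tested in the fit of each line. These were 13.9% called higher and 13.9% lower in PC3, and 22.5% and 23.3% in VCaP. They do not hold for other fits, such as the replicate block or those without a library, where other numbers of genes were called (below). STAT2, which binds USP18 at the interferon receptor and is part of the complex that drives the response element, rose from 58.5 ± 11.0 to 320.3 ± 22.4 CPM (log2 2.45 ± 0.15, adjusted p = 1.55e-05). The other 2 that rose were USP41 and ITGB2 (0.68 ± 0.13, adjusted p = 0.00680), a chain of the receptor for free ISG15. ITGAL, the other chain of that receptor, was the listed gene not tested, at a mean of 0.033 CPM in PC3 NSI and 0.056 in PC3 siFOXA1. USP16 fell by 0.42 on the log2 scale (adjusted p = 0.00589). In VCaP, 1 rose and 4 fell, with a median of -0.01, and the number that fell was 1 without NSI replicate 1 and 2 without NSI replicate 3, without siFOXA1 replicate 3 or by DESeq2. IFNAR2, the receptor chain that USP18 binds, rose from 18.9 ± 1.54 to 28.3 ± 0.187 CPM (log2 0.59 ± 0.071, adjusted p = 0.000136), and STAT2 had -0.02 ± 0.092 (adjusted p = 0.887). USP16 (-0.29) and USP5 (-0.25) were among those that fell. Apart from USP41, none of the listed proteases was called higher in either line. PC3 counts were 3 rising and 1 falling without any single library other than NSI replicate 2, 4 and 3 without that one, and 5 and 4 with the replicate number as a block.

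Proteins reported to carry ISG15 were listed as 17 genes, all tested. In PC3, 6 rose and 2 fell, with a median of 0.14. The largest rises were of MX1 (log2 4.34 ± 0.28, adjusted p = 2.27e-05), IFIT1 (4.09 ± 0.22, 9.32e-06) and DDX58 (3.59 ± 0.23, 1.95e-05), which are themselves known as interferon-induced genes. In VCaP, 3 rose and 7 fell, with a median of -0.15. IFIT1, at 36 to 89 counts a library, rose from 0.726 to 1.33 CPM (log2 0.88 ± 0.21, adjusted p = 0.00718). EIF2AK2, the antiviral kinase PKR, fell (-0.73 ± 0.060, adjusted p = 1.26e-05), as did the replication clamp PCNA (-0.68 ± 0.080, 0.000112) and MAPK3 (-0.51 ± 0.086, 0.00110). The 2 falling in PC3 and the 3 rising in VCaP were at or below the shares of all genes. In PC3, leaving out 1 library gave 5 to 8 rising and 0 to 2 falling, with 5 and 0 without siFOXA1 replicate 1, and the replicate block gave 8 and 4. In VCaP, leaving out 1 library gave 2 to 4 rising and 5 to 7 falling.

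Relatives of the members that serve mainly other modifiers were counted in the same way. Of these, UBE2E1 and UBE2E2 also stood on the list of genes tied to ISG15, and UBE2N on that of reported substrates. Among 8 E1 enzyme genes other than UBA7, 1 rose and 2 fell in PC3, and 2 rose and 3 fell in VCaP. The rise in PC3 was no call without NSI replicate 3, siFOXA1 replicate 1 or siFOXA1 replicate 3, each of which left 1 fall. The 2 rises in VCaP were no calls by DESeq2, with library size alone, with no filter, or when replicate 1 or 3 of NSI or replicate 1 or 2 of siFOXA1 was left out. UBA1, the ubiquitin E1 and the closest relative of UBA7, had -0.12 ± 0.082 in PC3 (adjusted p = 0.317) and -0.19 ± 0.073 in VCaP (0.0544). The largest E1 changes were NAE1 (-0.51) and UBA2 (-0.42) in PC3, of the NEDD8 and SUMO pathways, and SAE1 (-0.43) and UBA6 (-0.34) in VCaP. Of 32 E2 genes other than UBE2L6, 1 rose and 15 fell in PC3, and 6 rose and 10 fell in VCaP, the latter counts near the shares of all genes. Falls in PC3 were led by UBE2K (-0.94), UBE2C (-0.90) and UBE2S (-0.87), and UBE2H rose (0.74). In VCaP they were led by UBE2T (-1.12), UBE2S (-1.11) and UBE2C (-0.96), of which UBE2C and UBE2S serve the anaphase-promoting complex in mitosis. UBE2L3, the closest relative of UBE2L6, had -0.16 ± 0.094 in PC3 (adjusted p = 0.233) and -0.05 ± 0.059 in VCaP (0.497). In PC3, 5 E2 genes fell without siFOXA1 replicate 1, 8 without NSI replicate 1 or NSI replicate 3, 9 without siFOXA1 replicate 3, and 20 with the replicate block. In VCaP, 4 rose without NSI replicate 1 or siFOXA1 replicate 3, and 10 or 11 fell when 1 library was left out.

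Of the 4 other HERC genes, HERC3 was the only call in PC3, and in VCaP HERC3 and HERC1 (-0.24) fell and HERC4 rose (0.38). Ubiquitin and other small modifiers, 13 genes of which 12 were tested, gave 0 rising and 1 falling in PC3 by edgeR, namely RPS27A, a ubiquitin fusion gene (-0.54, adjusted p = 0.0480). The replicate block gave 8 falling there, and leaving out 1 library gave 0 to 2. In VCaP 2 rose and 6 fell, led by UFM1 (0.59), RPS27A (-0.53) and SUMO3 (-0.51). The number that rose there was 1 without NSI replicate 1 or siFOXA1 replicate 1.

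**Figure D4:**
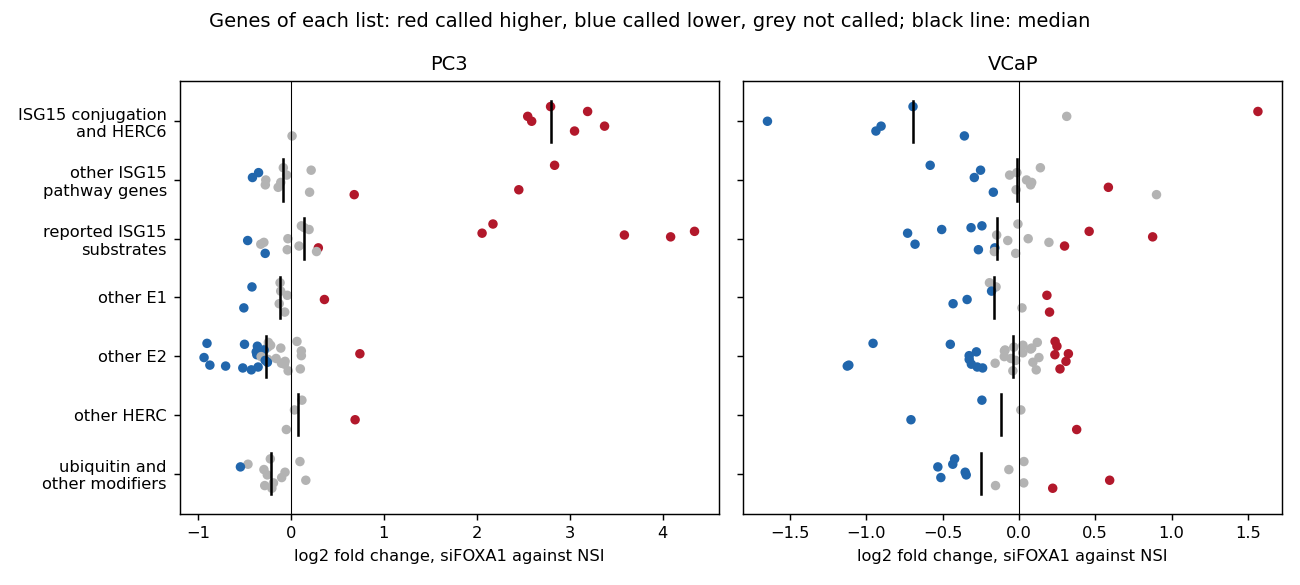
Log2 fold change of siFOXA1 against NSI for each gene of the 7 lists in PC3 (left) and VCaP (right), red where called higher, blue where called lower, grey where not called, with a black line at each list's median. In PC3, 6 of the 7 members lie between 2.55 and 3.38, and among the other lists only USP41, STAT2 and 5 reported substrates exceed 2. In VCaP the members lie between -1.65 and 1.57.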

How the data were processed

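RNA was measured in 12 libraries. Per the file headers, the authors made the estimated counts per gene (expected counts, not normalized) with featureCounts v2.0.0 on exons of GENCODE v28lift37, GRCh37, dividing fragments with several places or genes, which leaves 54.8% to 75.2% of nonzero values not whole. Strand was ignored in PC3 and reversed in VCaP, and STAR 2.7.3a is named per the submitters' processing notes. Counts were rounded to whole numbers and fitted per line with edgeR 4.0.16 in R 4.3.3 (TMM, filterByExpr, two-sided quasi-likelihood test, Benjamini-Hochberg adjustment over all genes tested, call under 0.05). All 12 libraries served for the difference between lines and the 6 NSI libraries for the control contrast. A standard error is the log2 fold change divided by the square root of F.

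The members and lists were chosen with earlier results of these data known. Named genes are the members, FOXA1, USP41, the closest relatives, the 2 non-members most like each member, and up to 4 called genes per list and line, largest first. Numbers paired the libraries in PC3, where the correlation of deviations of same-numbered libraries was 0.66, 0.72 and 0.30. With libraries of other numbers it averaged -0.13, -0.58 and -0.01. Pairing was not clear in VCaP, with 0.16, -0.03 and 0.38 against -0.03, 0.04 and -0.24, where replicate 3 stood out. Replicates of a group differed by more than sampling noise (chi-square of at least 11.03 per degree of freedom). The fit was tested on simulated data. DESeq2 1.42.0, other scalings, no filter, the block and leaving out each library were tried. Some genes that the naming rule or the marker list took are not reported here.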

Additional observations from a re-analysis of the deposited data

Results flagged for a closer look

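Among the 38 named genes reported, the effect of siFOXA1 differed between PC3 and VCaP by the interaction test in 24, of which 6 are members. Over all 30450 genes tested, 22.1% were called in either direction, and the genes named from the lists were the largest calls of each list and line, which raises their share. The values below are VCaP effects minus PC3 effects on the log2 scale. For the members they were -4.29 for HERC6, -4.25 for HERC5, -4.00 for USP18, -3.50 for ISG15, -2.25 for UBE2L6 and -1.64 for UBA7. USP41, the copy of USP18, had -3.43 and FOXA1 -1.94. Among genes tied to ISG15 they were -2.49 for STAT2, 0.71 for IFNAR2 and -0.48 for USP5. Among reported substrates they were -3.90 for MX1, -3.75 for DDX58, -3.22 for IFIT1, -2.80 for EIF2AK2 and -0.72 for MAPK3. Among relatives they were -1.41 for HERC3, 0.41 for HERC4, -0.72 for UBA6, 0.51 for NAE1, 1.05 for UBE2K, -0.43 for UBE2H, 0.42 for UFM1 and -0.43 for SUMO3. The members were picked with this difference known, and the line cannot be told apart from the kit, the dose and the medium.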

How the results depend on the processing

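All 6 members called in PC3 stayed called higher in each of 13 alternatives, with ISG15 between 2.55 and 3.00 and HERC6 between 3.26 and 3.55. In VCaP the 5 lower members and UBA7 stayed called in all 13, with HERC5 between -1.78 and -1.54. TRIM25 in PC3 turned sign without NSI replicate 2 (-0.069, and 0.12 without NSI replicate 1). The number of genes called in PC3 was 7344, and ranged from 3963 (without siFOXA1 replicate 1) to 7628 when 1 library was left out, with 4738 without NSI replicate 3. With the replicate block it was 11333, the numbers being paired in PC3, and the block changed no call of a member within a line. TRIM25's difference between the lines became a call with the block (-0.39), with library size alone (-0.47), with DESeq2 (-0.42) and without PC3 NSI replicate 1 (-0.52) or PC3 siFOXA1 replicate 2 (-0.50). In VCaP, where pairing by number was not clear, the block gave 11474 calls against 10500. USP41 in VCaP lost its call in 5 of 13 alternatives. Of all calls in PC3, 3675 were higher and 3669 lower, against 64.3% higher with library size alone; for the difference between lines it was 50.1% against 40.5%. Upper-quartile factors moved the median of all genes by 0.29 in the control contrast, with no member's call or direction changed. Ordering by CPM without dividing by length moved 14 of 28 ranks, among them ISG15 from first to second in PC3 NSI. The causes were not tested. Counts under 110 a library limit UBA7 in VCaP NSI, USP41 in VCaP and PC3 NSI, and IFIT1 in VCaP.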
